A study of Mus musculus with 9 samples.

Results

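Cathepsins are the proteases of the lysosome, and their genes were taken from the expression table by name. The 10 genes chosen were Ctsa, Ctsb, Ctsc, Ctsd, Ctsf, Ctsk, Ctsl, Ctso, Ctss and Ctsz, and 9 of them were among the 15184 genes of the table. Ctss was not analysed here. The table holds RNA-Seq of the polyA+ fraction from mouse embryonic fibroblasts (MEFs) in 9 libraries, 3 labelled Empty vector and 3 from each of the lines SAM1 and SAM2, both labelled Hnrnpk_SAM. SAM is the synergistic activator mediator system, in which a catalytically dead Cas9 carries transcriptional activators to a promoter that a guide RNA selects. The methods describe WT MEFs that received the lentiviral vectors lentiMPHv2 and lentiSAMv2 and were selected with blasticidin and hygromycin. Both guides were aimed at Hnrnpk, and the labels do not say which guide SAM1 or SAM2 carries. The methods print the same sequence for the second of these guides and for the nontargeting control, so the guide of neither line nor of the controls is settled by the sources. The labels call the controls Empty vector, while the methods describe lentiSAMv2 with a nontargeting guide. The labels and methods do not say how many transduced and selected populations gave each line, and line and guide cannot be told apart. Nothing in the labels says that replicates came from separate cultures, and the p-values therefore measure the spread between libraries, which may be technical.

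Cathepsins are made as inactive precursors in the endoplasmic reticulum, tagged with mannose 6-phosphate, carried to the acidic lysosome and activated there by cleavage. Most are cysteine proteases of the papain family (Ctsb, Ctsc, Ctsf, Ctsk, Ctsl, Ctso and Ctsz), whereas Ctsd is an aspartic protease and Ctsa is a serine carboxypeptidase. Fibroblasts use them for protein turnover in the lysosome and can secrete some of them, and many lysosomal genes carry the CLEAR element bound by TFEB and its relatives in their promoters.

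Promoter windows from RefSeq (build GRCm38.p6) were searched for this element, because shared regulatory sequence was not part of how the genes were chosen. Each window held the 250 bases before and the 50 bases after a start site, and 8 of the 9 genes had one. Ctsb was without an entry. The motifs searched were TCACGTGA, a core of the CLEAR element, and the plain E-box CACGTG, which lies inside it. Both read the same on either strand. CACGTG was found in the windows of 4 of the 8 genes (Ctsa, Ctsd, Ctsf and Ctsl), and TCACGTGA in 2 of these (Ctsa and Ctsd). Of 32851 mouse windows, 7.15% held CACGTG and 0.974% held TCACGTGA. Among the genes of the expression table with a window, 11.4% held CACGTG and 2.12% held TCACGTGA. Capitals mark TCACGTGA in the stretches of Ctsa (chr2:164833623-164833772, plus strand) and Ctsd (chr7:142387828-142387977, minus strand), and CACGTG in those of Ctsf (chr19:4855074-4855103, plus strand) and Ctsl (chr13:64370739-64370768, minus strand), all written 5′ to 3′ along the gene.
Ctsa: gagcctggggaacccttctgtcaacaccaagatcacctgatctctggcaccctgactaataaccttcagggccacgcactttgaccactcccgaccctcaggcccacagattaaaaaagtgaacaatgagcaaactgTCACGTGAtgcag
Ctsd: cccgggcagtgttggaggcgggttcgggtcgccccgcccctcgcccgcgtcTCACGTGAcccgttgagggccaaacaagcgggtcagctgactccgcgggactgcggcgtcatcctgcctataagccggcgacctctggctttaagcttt
Ctsf: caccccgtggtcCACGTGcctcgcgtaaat
Ctsl: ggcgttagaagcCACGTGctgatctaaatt
The marked E-box began 12 bases before the start site in Ctsa, 98 in Ctsd, 79 in Ctsf and 236 in Ctsl. Ctsa held another E-box from base 6 after the start, also inside TCACGTGA. Ctsd held another from 245 bases before its start, a plain E-box outside that core. These matches are letters in a window and not measured binding sites.

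Reads on listed genes ranged from 41759636 to 49026626 per library, so counting error was small even for Ctsc, the lowest of the 9 genes in empty vector, at 117 to 138 normalized counts there. Normalized counts are reads divided by the size factor of the library. Hnrnpk itself, the targeted gene, was at 25773 ± 621 normalized counts (SD, n = 3) in empty vector, 23922 ± 264 in SAM1 and 26563 ± 321 in SAM2, so its RNA was not raised in the libraries labelled Hnrnpk_SAM (pooled log2 fold change -0.032, limma adjusted p = 0.642). Taken by line, it was lower in SAM1 (-0.11, adjusted p = 0.00252) and not called in SAM2 (0.044, adjusted p = 0.159). Every direction below compares libraries as labelled. All 12 fibroblast markers were listed, with summed levels of 1048613 to 1143436 normalized counts in empty vector, 865735 to 927412 in SAM1 and 1165994 to 1204541 in SAM2. Among them, and named after the values were seen, Dcn was 4.36-fold lower in the SAM1 mean and 4.65-fold lower in that of SAM2. Pdgfrb was 1.91-fold higher in SAM1 and 1.45-fold higher in SAM2. Col1a1 was at 0.79 of the empty vector mean in SAM1 and at 1.31 of it in SAM2, so the markers did not share a direction. The 5 listed of 7 endothelial markers summed to 428 to 468 normalized counts in empty vector, 4922 to 5343 in SAM1 (most of it Kdr) and 907 to 977 in SAM2. The 3 listed of 7 epithelial markers summed to 1901 to 2045, 3529 to 3963 and 2622 to 2711, most of it Krt19 in each group. Of the other epithelial markers listed, Cdh1 had means of 33.9, 88.7 and 32.4 and Krt8 of 12.2, 23.0 and 16.7. The part of these shifts in the cathepsin values was not tested. SAM1 replicate 2 stood apart from the other SAM1 libraries, with a chi-square per gene of 7.99 and 9.49 against them and 1.46 between those. The empty vector libraries differed from each other by more, at 11.5 to 13.8, and the SAM2 libraries by 1.54 to 2.33. The spread was thus unequal between groups, while each limma fit used 1 estimate of it per gene.

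Against empty vector, 3 of the 9 cathepsin genes rose in the 6 SAM libraries (Ctsa, Ctsb and Ctsc) and 3 fell (Ctsd, Ctsf and Ctso) at a limma adjusted p under 0.05. Over all genes, 26.8% were called higher and 27.0% lower, and 3 calls among 9 genes in each direction stand close to these shares. In SAM1 alone, 3 were called higher and 5 lower beside backgrounds of 37.3% and 36.9%, and under quantile normalization, where Ctsl and Ctsz turned, 5 were higher and 4 lower. In SAM2 alone, 3 rose and 5 fell beside 35.2% and 35.3%. The 6 genes called in the pooled comparison were called in the same direction in both lines. Both lines were compared with the same 3 empty vector libraries. The median log2 fold change of the 9 genes was -0.17 against 0.0087 for all genes. Under quantile normalization these medians were -0.014 and -0.036, in the reverse order. Without that normalization, the values of the 9 genes ran from -1.87 to 1.82. The median size of change, without its sign, was 0.43 on the log2 scale for the cathepsin genes and 0.33 for all genes. The plot of each gene by library shows this spread.

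**Figure D1:**
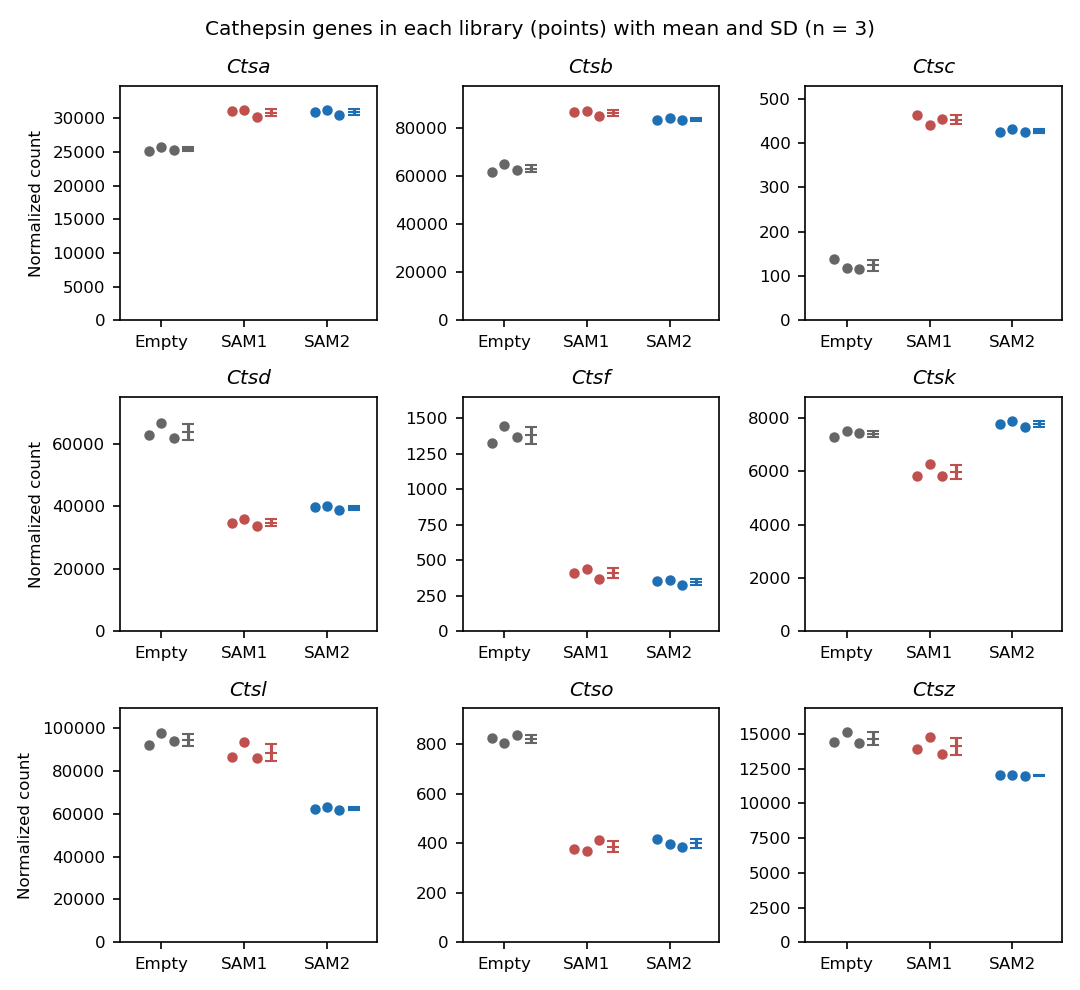
Normalized counts of the 9 cathepsin genes (vertical axes from 0, one scale per gene) in each library, grouped as empty vector, SAM1 and SAM2, with bars for the mean and SD of 3 libraries. Ctsa, Ctsb and Ctsc lie higher and Ctsd, Ctsf and Ctso lower in all 6 SAM libraries than in the 3 empty vector libraries, while Ctsk lies lower in SAM1 only and Ctsl and Ctsz lie lowest in SAM2.

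Ctsd (chr7:141929646-141941775 in GRCm39, minus strand), the aspartic endopeptidase, fell in both lines. In empty vector it was at 62743, 66534 and 61765 normalized counts, in SAM1 at 34574, 35925 and 33790.5, and in SAM2 at 39705, 40001 and 38852. All 6 SAM libraries were below all 3 controls, and the SAM1 libraries were below those of SAM2. Its mean was 1.83-fold lower in SAM1 and 1.61-fold lower in SAM2 (pooled log2 fold change -0.78, SE 0.0663, limma adjusted p = 9.85e-06). Under quantile normalization the fall was smaller, at -0.51 pooled and -0.42 in SAM2. The lines differed by 0.19 on the log2 scale, SAM2 being the higher (adjusted p = 0.000366). Ctsd carries the TCACGTGA shown above, and so does Ctsa, which rose in the same libraries.

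Among the cysteine endopeptidases, Ctsf and Ctso fell in both lines by more than any other gene of the 9. Ctsf (chr19:4905118-4915986, plus strand), a papain-family protease whose loss causes a lysosomal storage disease of neurons, was at 1324, 1443 and 1368 normalized counts in empty vector, at 413, 442 and 372 in SAM1, and at 354, 363 and 327 in SAM2. The SAM libraries lay far below the controls, at a mean 3.37-fold lower in SAM1 and 3.96-fold lower in SAM2 (pooled log2 fold change -1.87, SE 0.0938, adjusted p = 3.64e-07). SAM2 minus SAM1 was -0.23 on the log2 scale (adjusted p = 0.0104), a call that was lost without SAM2 replicate 3 (adjusted p = 0.0526). Ctso (chr3:81839873-81867246, plus strand), a widely expressed and less studied member of the family, fell from 825, 807 and 836 normalized counts to 376, 371 and 412 in SAM1 and to 417, 398 and 384 in SAM2. No SAM library came near the controls, and the libraries of the lines overlapped each other. The mean was 2.13-fold and 2.06-fold lower (pooled log2 fold change -1.06, SE 0.0576, adjusted p = 5.73e-07), and the difference between the lines was 0.050 with a 95% interval of -0.074 to 0.17.

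Ctsl and Ctsk, the other cysteine endopeptidases, depended on the line. Ctsl (chr13:64507151-64518704, minus strand), a major endopeptidase of the lysosome that mouse fibroblasts also secrete, was at 91903, 97478 and 94001 normalized counts in empty vector and at 61991, 63139.5 and 61832 in SAM2, a mean 1.52-fold lower (log2 fold change -0.60, SE 0.0353, adjusted p = 5.59e-09). Under quantile normalization this SAM2 change shrank to -0.15 (adjusted p = 0.0166). In SAM1 it was at 86424, 93173 and 85706. The highest SAM1 library, replicate 2, lay above the lowest control, and the groups overlapped. The SAM1 change of -0.096 (adjusted p = 0.0260) turned to 0.26 under quantile normalization (adjusted p = 0.000365) and to 0.047 with libraries scaled to equal sums (adjusted p = 0.280), so no direction is given for Ctsl in SAM1. With the lines pooled, Ctsl was not called (log2 fold change -0.35, adjusted p = 0.0759, and 0.056 under quantile normalization), and without SAM1 replicate 2 it was (-0.41, adjusted p = 0.0298). SAM2 lay below SAM1, with a difference of -0.50 (SE 0.0353, adjusted p = 6.24e-08).

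Ctsk (chr3:95406178-95416732, plus strand), the collagen-degrading cathepsin known best from osteoclasts, was at 7264, 7486 and 7414 normalized counts in empty vector, at 5833, 6264 and 5829 in SAM1, and at 7749.8, 7872 and 7640.0 in SAM2. The SAM1 libraries were below all controls and the SAM2 libraries above all controls, so the groups did not overlap in either case. It fell in SAM1 (log2 fold change -0.31, SE 0.0325, adjusted p = 1.59e-06), by less under quantile normalization (-0.18) and equal sums (-0.16), whereas the SAM2 value of 0.070 did not pass the threshold (adjusted p = 0.0717). That SAM2 value passed under quantile normalization (0.15, adjusted p = 0.00166) and equal sums (0.17, adjusted p = 0.000605). The lines differed by 0.38 (SE 0.0325, adjusted p = 4.84e-07), and the pooled value of -0.12, whose sign turned with equal sums, was not called (adjusted p = 0.399). Of the 9 osteoclast markers, 5 were listed, and their summed level was 1419 to 1499.7 normalized counts in empty vector, 3435 to 3781 in SAM1 and 2892 to 3029 in SAM2, most of it from Itgb3 and Nfatc1. Acp5, Calcr, Ocstamp and Dcstamp were not among the listed genes, and Atp6v0d2 was at 0 in 2 of the 3 SAM2 libraries. In SAM1 Ctsk was thus lower and the osteoclast marker sum higher than in empty vector, and the part of other cells in the level of Ctsk was not tested. In bulk RNA, fewer cells of a type and less RNA per cell cannot be told apart.

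Of the genes with exopeptidase activity, Ctsc, Ctsb and Ctsa rose in both lines and Ctsz did not. Ctsc (chr7:87927092-87960096, plus strand), a dipeptidyl peptidase that activates serine proteases of immune cells, was at 138, 118 and 117 normalized counts in empty vector, at 462, 441 and 453 in SAM1, and at 424, 432 and 425 in SAM2. Every SAM library held more than the sum of the 3 controls. The mean was 3.64-fold higher in SAM1 and 3.44-fold higher in SAM2 (pooled log2 fold change 1.82, SE 0.0742, adjusted p = 1.07e-07), and the lines differed by -0.082 with a 95% interval of -0.24 to 0.075. Of 15 macrophage markers, 5 were listed, with summed levels of 1512 to 1552 normalized counts in empty vector, 2528 to 2681 in SAM1 and 1769 to 1784 in SAM2. Ptprc, Adgre1, Itgam, Tyrobp, Fcer1g, Aif1, Laptm5 and the C1q genes were not among the listed genes. Csf1r was at 225 ± 11.5, 252 ± 24.5 and 111 ± 5.71 normalized counts in empty vector, SAM1 and SAM2, and Lyz2 at 78.2 ± 10.6, 181 ± 21.9 and 45.3 ± 8.38 (SD, n = 3). Of the 5 listed, Cd68 and Cd14 rose in both lines, Mpeg1 fell in both, Csf1r fell in SAM2 and was not called in SAM1, and Lyz2 rose in SAM1 and fell in SAM2. Their part in the level of Ctsc was not tested.

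Ctsb (chr14:63358384-63383372, plus strand), an abundant protease that acts both as an endopeptidase and as a dipeptidyl carboxypeptidase, was at 61728, 64779.9 and 62492 normalized counts in empty vector, at 86377, 86995 and 84845 in SAM1, and at 83301, 84068 and 83006 in SAM2. The SAM libraries were all above the controls. Its mean was 1.37-fold higher in SAM1 and 1.32-fold higher in SAM2 (pooled log2 fold change 0.43, SE 0.0407, adjusted p = 1.99e-05). Ctsa (chr2:164674778-164682961, plus strand), the carboxypeptidase that also holds beta-galactosidase and neuraminidase in a protective complex, was at 25130.3, 25728 and 25272 normalized counts in empty vector, at 31003, 31136 and 30188 in SAM1, and at 30979.6, 31241 and 30464 in SAM2. The lines lay on top of each other and above the controls, 1.21-fold and 1.22-fold higher in the mean (pooled log2 fold change 0.28, SE 0.0323, adjusted p = 7.07e-05). The size of both rises depended on the scaling and reached 0.73 for Ctsb and 0.46 for Ctsa under quantile normalization. The difference between the lines was -0.044 for Ctsb, with a 95% interval of -0.10 to 0.015, and 0.0056 for Ctsa, with an interval of -0.050 to 0.061.

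Ctsz (chr2:174267304-174280832, minus strand), a carboxypeptidase also called cathepsin X, was at 14436, 15162 and 14322 normalized counts in empty vector, at 13933, 14776 and 13549 in SAM1, and at 12024, 12037 and 11961 in SAM2. Only the SAM2 libraries were clear of the controls, 1.22-fold lower in the mean (log2 fold change -0.29, SE 0.0342, adjusted p = 6.09e-06). The SAM1 value of -0.056 was not called (adjusted p = 0.155) and turned to 0.11 under quantile normalization (adjusted p = 0.0119) and 0.086 with equal sums (adjusted p = 0.0473). The lines differed by -0.23 (SE 0.0342, adjusted p = 7.43e-05). With the lines pooled, Ctsz was not called (-0.17, adjusted p = 0.0812), and without SAM1 replicate 2 it was (-0.21, adjusted p = 0.0221).

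**Figure D2:**
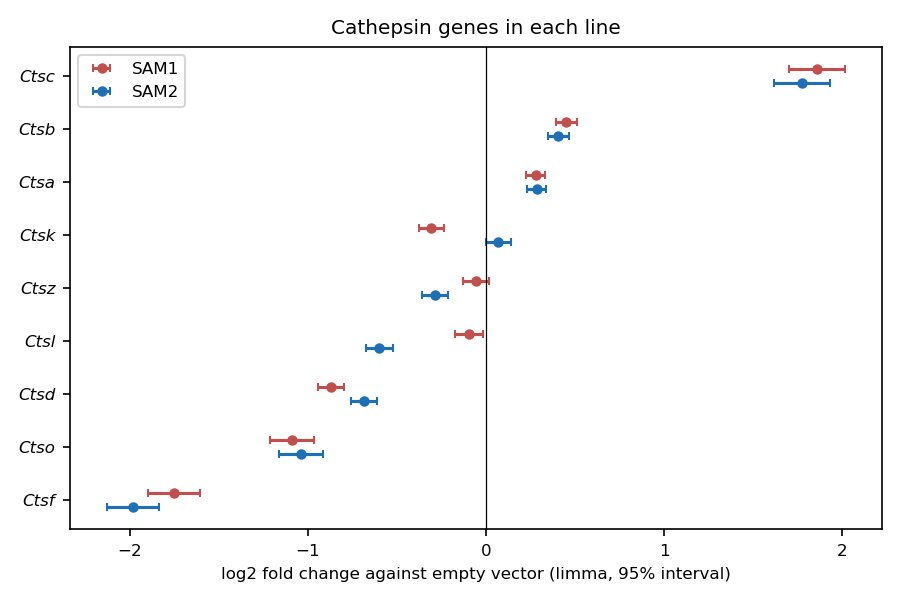
Log2 fold change of each cathepsin gene against empty vector in SAM1 (red) and SAM2 (blue), with 95% intervals from the limma fit of 3 groups. The intervals of the lines overlap for Ctsa, Ctsb, Ctsc, Ctsf and Ctso and part most for Ctsl and Ctsk. Under quantile normalization or equal sums, the SAM1 values of Ctsl and Ctsz lie above 0.

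Between the lines, 2 of the 9 genes were higher in SAM2 (Ctsd and Ctsk) and 3 were lower (Ctsf, Ctsl and Ctsz), beside 31.1% higher and 29.2% lower over all genes. The median size of the difference was 0.19 on the log2 scale for the cathepsin genes and 0.23 for all genes. Both values are differences and not levels.

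Per kb of merged exon length, the levels fell into an abundant and a scarce set. In empty vector, Ctsd was highest at 23014 ± 910.3 normalized counts per kb (SD, n = 3), followed by Ctsl at 14156 ± 422, Ctsb at 8209.5 ± 207, Ctsa at 4927 ± 60.6, Ctsz at 3948 ± 123 and Ctsk at 2509.5 ± 38.4. Ctsf at 141 ± 6.17, Ctso at 73.5 ± 1.34 and Ctsc at 19.8 ± 1.93 were far below, and no 2 neighbours in this order overlapped. In SAM1 the order was led by Ctsl at 13253 ± 617 and Ctsd at 12563 ± 390.3, whose libraries overlapped. In SAM2 it was led by Ctsd at 14282 ± 215 and Ctsb at 10875 ± 71.4, with Ctsl at 9339 ± 107. Ctsc, the scarcest in empty vector, stood above Ctsf and Ctso in both lines, at 72.3 ± 1.67 per kb in SAM1 and 68.3 ± 0.691 in SAM2. With the length of the longest transcript in place of merged exons, Ctsb led in SAM1, followed by Ctsd and Ctsl. Without division by length, Ctsl held the most normalized counts in empty vector (mean 94461, against 63681 for Ctsd). The order at the top thus depends on the lengths used. They come from GENCODE vM39, whereas the authors counted reads on an earlier GENCODE release.

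Some abundant members rose while others fell, and the sum of the 9 genes was taken beside them. Summed normalized counts were 270872 ± 7576 in empty vector, 261355 ± 7387 in SAM1 and 237130 ± 2336 in SAM2 (SD, n = 3). These were 0.555%, 0.591% and 0.522% of all normalized counts in the table. Within the sum, Ctsb went from 23.3% in empty vector to 32.9% in SAM1 and 35.2% in SAM2, and Ctsd from 23.5% to 13.3% and 16.7%. Ctsl made up 34.9%, 33.8% and 26.3%, and Ctsa 9.37%, 11.8% and 13.03%. Ctsc, Ctsf and Ctso together were too scarce to show in the sum.

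**Figure D3:**
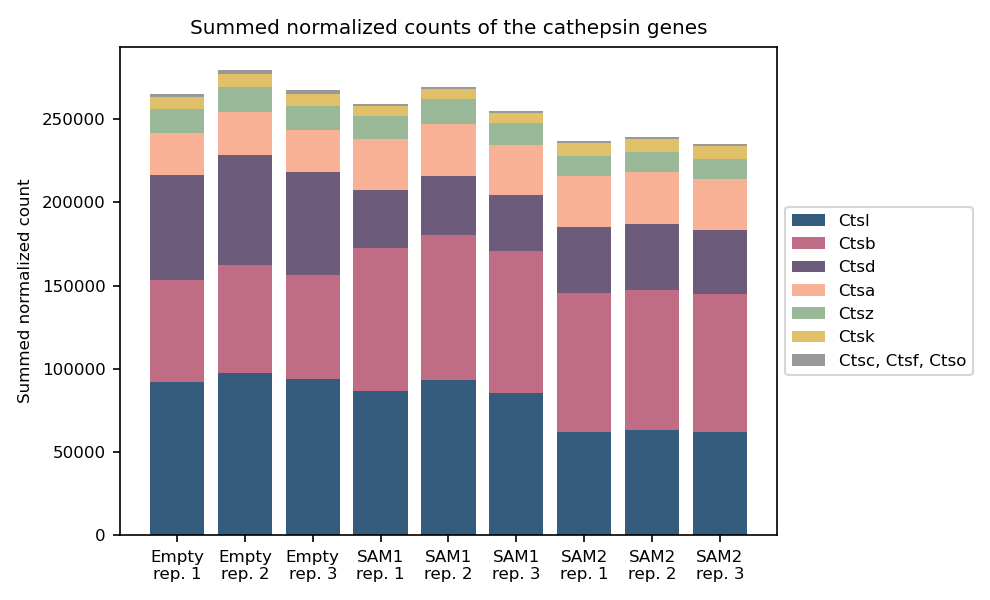
Summed normalized counts of the 9 cathepsin genes in each of the 9 libraries (vertical axis from 0), with each bar divided by gene. The part of Ctsb grows and that of Ctsd shrinks in all 6 SAM libraries, and the part of Ctsl shrinks in SAM2.

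The genes lie on 6 chromosomes, and the median change of some chromosomes lay away from 0, so each gene was set beside its neighbours. Ctsb at 0.43 (pooled log2 fold change) lay below the median of 0.55 of the other 512 listed genes on chromosome 14 and below the median of 0.67 of the 26 genes within 2 Mb, of which 25 were above 0. Ctsa at 0.28 stood beside a median of 0.21 over 1145 other genes of chromosome 2 and 0.25 over 50 genes within 2 Mb. For Ctsa and Ctsb, the neighbours thus shifted by about as much as or more than the gene did, and the parts of locus and gene were not tested.

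The genes with the largest changes stood away from their surroundings. Ctsc at 1.82 was on a chromosome with a median of -0.24, where 1064 of 1084 other genes were below it, and the 14 genes within 2 Mb had a median of -0.029. Ctsf at -1.87 had a local median of 0.012 over 147 genes, and only 5 of 517 other genes on chromosome 19 were lower. Ctso at -1.06 had a local median of 0.28 over 12 genes, of which 9 were above 0. Ctsd at -0.78, also on chromosome 7, had a local median of -0.34 over 69 genes, with 17 above 0. Ctsz at -0.17 had a median of -0.28 over 25 genes within 2 Mb but 0.00079 over 52 within 5 Mb. The local medians were -0.16 over 24 genes for Ctsl and 0.10 over 84 genes for Ctsk.

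**Figure D4:**
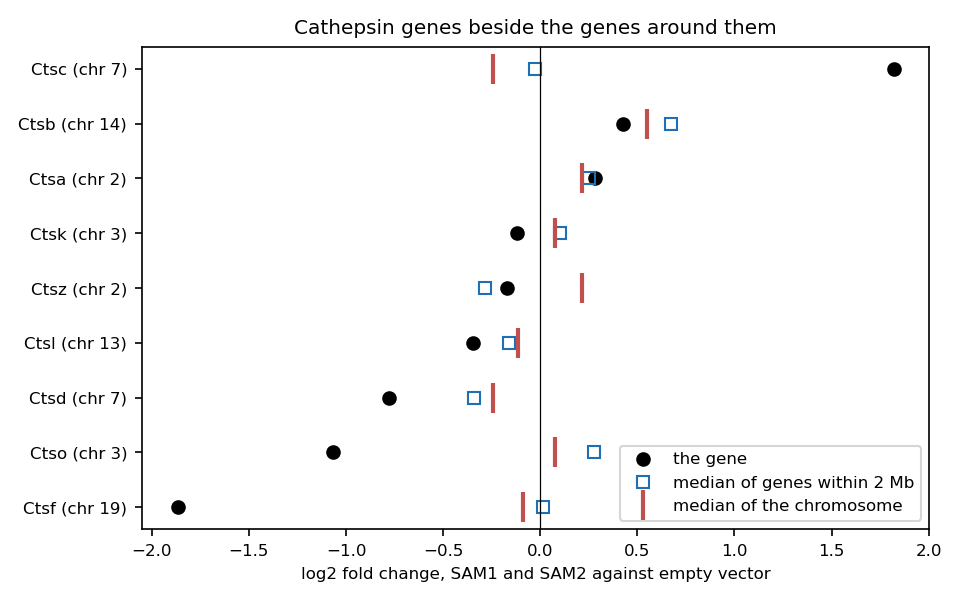
Pooled log2 fold change of each cathepsin gene (black points) beside the median of the other listed genes within 2 Mb (blue squares) and on its whole chromosome (red bars). Ctsa and Ctsb lie near or below the medians around them, whereas Ctsc, Ctsf and Ctso lie more than 1 log2 unit away from both.

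Several of these genes share exon bases with another gene. Ctsd shares 808 bases with Gm49369, on the same strand, which fell as well (164 ± 12.04 normalized counts in empty vector, 88.0 ± 1.98 in SAM1 and 108 ± 10.9 in SAM2), and reads from the shared bases cannot be assigned to one of them. The other listed partners are on the opposite strand. Fdft1, a cholesterol synthesis enzyme sharing 1184 bases with Ctsb, rose with it (pooled log2 fold change 0.36, adjusted p = 9.71e-05). Neurl2, sharing 649 bases with Ctsa, rose by more than Ctsa did (0.97, adjusted p = 5.42e-05), and Pltp, a phospholipid transfer protein sharing 1252 bases with it, was not called (-0.25, adjusted p = 0.377). Actn3, a muscle actinin sharing 1355 bases with Ctsf, rose while Ctsf fell (1.20, adjusted p = 0.00411), and Nelfcd, sharing 1084 bases with Ctsz, fell (-0.25, adjusted p = 0.0439). The kit kept the strand, but the strand setting of the count is not given in the sources used here. The same question of strand applies to partners that were not among the listed genes. Ctso shares 2004 bases with Tdo2, and Ctsl shares 1742 with the long noncoding RNA gene Gm47123, both on the opposite strand. Ctsl also shares 395 bases with the processed pseudogene Gm49230 on the same strand, so the level of Ctsl carries that uncertainty.

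Beyond the 9 genes, Ctsh and Ctsw were the listed cathepsins among 13 others searched. Ctsh, an aminopeptidase, rose from 155, 147 and 131 normalized counts in empty vector to 682, 756 and 686 in SAM1 and 479, 515 and 535 in SAM2 (pooled log2 fold change 2.05, adjusted p = 4.41e-06). Ctsw, known from cytotoxic lymphocytes, fell from 169.8, 152 and 155 to 73.1, 79.0 and 89.8 in SAM1 and 98.9, 111 and 90.0 in SAM2 (-0.82, adjusted p = 0.000757). Neither set of SAM libraries overlapped the controls.

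Of 15 genes for cathepsin inhibitors, 11 were listed, of which 3 rose (Cst6, Ctla2a and Ctla2b) and 4 fell (Serpinb6b, Serpinb9, Serpina3g and Serpina3n), with a median log2 fold change of -0.19, or -0.024 under quantile normalization. Serpina3n, a secreted serpin of the antichymotrypsin family, showed the largest change of the list, from 591, 506 and 525 normalized counts in empty vector to 20.9, 22.7 and 23.4 in SAM1 and 17.8, 16.7 and 18.6 in SAM2 (-4.70, adjusted p = 1.91e-08). All 6 SAM libraries held under 25 normalized counts of it. Serpina3g, an inhibitor of cysteine cathepsins inside the cell, fell by 5.65-fold in the SAM1 mean and by 2.02-fold in that of SAM2 (pooled -1.72, adjusted p = 0.00843).

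Of the 6 listed members of 7 other lysosomal proteases, 1 rose (Dpp7) and 4 fell (Lgmn, Tpp1, Scpep1 and Prcp), but only 1 fell under quantile normalization. Prcp, a prolylcarboxypeptidase, changed by -0.46 (adjusted p = 0.00733) and Scpep1, a serine carboxypeptidase related to Ctsa, by -0.39 (adjusted p = 0.0238). Among 36 listed of 38 lysosomal glycosidases, sulfatases and lipid hydrolases, 10 rose and 17 fell (median -0.18), while quantile normalization gave 11 and 12 (median -0.089). Ppt2, a thioesterase, rose by 1.23 (adjusted p = 6.88e-05) and Naglu, which acts on heparan sulfate, fell by 1.09 on the log2 scale (adjusted p = 0.000668). Over all genes, 26.8% were higher and 27.0% lower in the same comparison.

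Of the 21 lysosomal membrane proteins, all listed, 5 rose and 10 fell (median -0.17), with Cln8 at -0.94 (adjusted p = 0.000432) and Laptm4b at -0.72 (adjusted p = 2.28e-05). For this and the next lists, the shares over all genes were 26.8% higher and 27.0% lower. The 17 subunits and partners of the vacuolar proton pump, which acidifies the lysosome and so sets cathepsin activity, had 3 that rose, 5 that fell and a median of -0.072, which turned to 0.055 under quantile normalization. Its largest changes were Atp6v1h at -0.58 (adjusted p = 4.83e-06) and Atp6v1g1 at -0.43 (adjusted p = 0.000414). Of 12 genes for mannose 6-phosphate tagging and sorting, the route by which cathepsins reach the lysosome, 5 rose and 3 fell (median 0.12, or 0.19 under quantile normalization). Sort1, a sorting receptor, rose by 0.55 (adjusted p = 0.0305), and Vps29, a retromer subunit, fell by 0.42 on the log2 scale (adjusted p = 0.000757).

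Among regulators of lysosomal transcription, the largest pooled changes past the threshold were those of Rragd and Zkscan3. Rragd, a GTPase that links amino acid supply to TFEB, fell from 3248, 3058 and 3154 normalized counts to 576, 615 and 636 in SAM1 and 416, 425 and 421 in SAM2 (-2.64, adjusted p = 1.08e-06). Zkscan3, a repressor of lysosomal genes, changed by -0.75 (adjusted p = 2.15e-06).

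**Figure D5:**
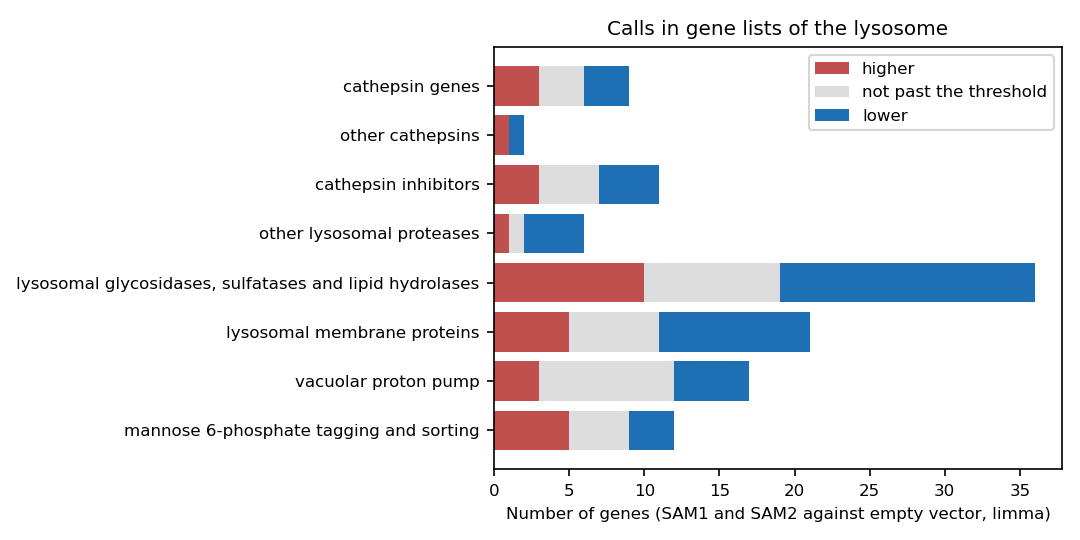
Number of genes (horizontal axis from 0) called higher (red), lower (blue) or not past the threshold (grey) in the pooled comparison, for the 9 cathepsin genes and 7 further lists. Each list of more than 2 genes holds calls in both directions and genes that were not called.

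For each cathepsin gene, the gene outside the 9 with the most similar profile was sought over the 9 libraries, by the root mean square difference of log2 values centred on the empty vector mean. All profiles share the same libraries, and the values are a description. The closest pair was Ctsd with Emc10 (0.0123 log2 units), which also lies on chromosome 7. Ctsa was closest to Cchcr1 (0.0216), Ctsb to Myef2 (0.0244), Ctsz to Ppp2cb (0.0283) and Ctsk to Eif3e (0.0305). The nearest profile to Ctsl was that of Ldha (0.0327), to Ctsc that of Troap (0.0523) and to Ctso that of Ccdc90b (0.0604). Ctsf had the least similar partner, Il7 (0.108), which was at 101, 29.8 and 26.2 normalized counts in the means of empty vector, SAM1 and SAM2.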

How the data were processed

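PolyA+ RNA of 9 MEF libraries was sequenced in pairs of 43 bases with a strand-directional kit. Per the labels and methods, the authors checked reads with FastQC (0.11.0), aligned them with TopHat2 and Bowtie to GRCm39, made gene counts with HTSeq and scaled the libraries with DESeq2. What they deposited is a signal of normalized counts per gene, which the authors kept for genes above 10 in at least 30% of libraries. All 9 cathepsin genes listed were above 10 in every library. A gene high in 1 group alone could pass this filter.

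Groups and replicate numbers came from the labels. Since such a signal is not a count, log2(value + 1) was tested with limma (3.58.1, in R 4.3.3, moderated with an intensity trend) over all 15184 genes, two-sided, and p-values were adjusted by Benjamini-Hochberg and called under 0.05. Fold changes are on that log2(value + 1) scale, and ratios of means are on the linear scale. The 6 SAM libraries were compared with the 3 empty vector libraries, and a fit of 3 groups compared the lines. In all 9 libraries, 100% of values came out as whole reads (within 0.05 of an integer). The step of SAM2 replicate 1 is too close to 1 for the check that was used, so TMM scaling, edgeR (4.0.16) and DESeq2 (1.42.0) used the reads of the other 8 as alternatives, and edgeR and DESeq2 were also run on all 9 (chosen after seeing the data). On those 9, edgeR called 8168 and DESeq2 8468 genes in the pooled comparison. The scripts were tested on simulated data.

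The cathepsin genes, gene lists and tests were chosen with earlier results of these data known. Genes named from each further list were the 2 with the largest pooled change past the threshold. Marker, overlapping and neighbouring genes were named where a result touched them. Gene positions come from GENCODE vM39 on GRCm39, where 14791 names of the table matched 1 gene, and promoters from RefSeq GRCm38.p6. Protein sequences were not compared here, and the counts of 1 further list, of lysosomal transcription regulators, are not reported here.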

Additional observations from a re-analysis of the deposited data

Results flagged for a closer look

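The effects of SAM1 and SAM2 against the shared empty vector libraries differed for 5 of the 9 cathepsin genes, by the limma test of the difference between the lines. SAM2 minus SAM1 on the log2 scale was 0.19 for Ctsd, -0.23 for Ctsf, 0.38 for Ctsk, -0.50 for Ctsl and -0.23 for Ctsz. Over all genes, 31.1% were higher and 29.2% lower in SAM2 than in SAM1, so a difference between the lines was common in the table. For Ctsk the 3 SAM1 libraries lay below and the 3 SAM2 libraries above all empty vector libraries.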

How the results depend on the processing

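Of 729 alternative values for 36 results on single cathepsin genes, 702 kept their direction and side of the threshold, 6 lost a call, 11 gained one and 10 turned sign. Of the 10, 4 were in SAM1 against empty vector, Ctsl at 0.26 and Ctsz at 0.11 under quantile normalization and 0.047 and 0.086 with libraries scaled to equal sums, where quantile normalization gave 5 genes higher in place of 3. The other 6 were of values not called either way, pooled Ctsl at 0.056 (quantile), pooled Ctsk at 0.0044 (equal sums), and in SAM2 against SAM1 Ctsb at 0.049 (quantile) and Ctsa at -0.033 (equal sums) and at -0.0082 to 0.016 leaving out 1 library, below 0 without SAM1 replicate 3 or SAM2 replicate 2. The cause was not tested. The mean of both lines from the fit of 3 groups, whose spread leaves out the difference between the lines, gave 6 genes lower in the pooled comparison in place of 3. Leaving out 1 library gave 3 to 5 genes lower in the pooled comparison, and the 5 came without SAM1 replicate 2. Leaving out 1 library gave 4 to 6 lower genes in SAM1 and 3 to 4 higher genes in SAM2. Ctsl in SAM1 lost its call without Empty vector replicate 2 or 3 or SAM1 replicate 1 or 3 (adjusted p up to 0.112) and under TMM scaling (0.0514). Ctsb was lower in SAM2 than in SAM1 with equal sums (-0.083, adjusted p = 0.0227). Replicate numbers were shared between groups, and the labels do not say whether they pair the libraries. The mean correlation of deviations was 0.0531 for the same number (0.00237 to 0.117) and -0.0265 for different numbers (-0.122 to 0.0460). Deviations were centred within each group, which ties these means to each other, so they do not settle whether the libraries are paired. With the replicate number as a block, Ctsk in SAM2 was called at 0.070 (adjusted p = 0.0276), which made 4 genes higher in SAM2 in place of 3, and no other call changed. Every library held at least 117 normalized counts of each gene, so depth limited none of these values by much.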
